A study of Homo sapiens with 8 samples.

Results

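The liver makes most of the proteins of blood plasma, and 58 of its genes are described here: those of albumin and other carriers and acute-phase proteins (14 genes), the fetal liver genes AFP and GPC3, coagulation and fibrinolysis proteins (15), complement proteins (12), and protease inhibitors with their serpin relatives (15). They are called plasma protein genes below, although GPC3 encodes a proteoglycan of the cell surface. The members were chosen by name, and a gene counted as listed when its name stood beside a value in the authors' deposited table. Of the 58 genes, 47 were listed for at least 1 of 2 hepatocellular carcinoma cell lines, out of 12058 gene names in all. HUH7 listed 42 of them among 10447 genes, and PLC/PRF/5 listed 23 of them, with 49 values, among 5477 gene names with 9516 values.

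The study compared CSTF2-knockout cells, made with CRISPR-Cas9, with parental cells of the same line, in HUH7 and in PLC/PRF/5. In MeRIP-seq, RNA fragments pulled down by an antibody against N6-methyladenosine (m6A) are sequenced beside an input library, and places enriched in the pull-down are called peaks. Each line gave 4 libraries, the IP and the input of the knockout cells and the IP and the input of the parental cells, so that each of the 8 groups held 1 library. The labels name no treatment, and they do not say whether knockout cells were a clone or a pool. CSTF2 belongs to the cleavage stimulation factor, a complex that helps to form the 3′ ends of mRNAs. Its own name was absent from the HUH7 column and stood beside a single PLC/PRF/5 value of -0.50 in the authors' deposited table, which gives no check of the knockout.

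Every value below is a log2 fold change from the authors' deposited table. The header does not say which genotype is the numerator, so signs are given as deposited and not as a gain or loss in the knockout cells. It also does not say whether IP was divided by input, so a change in methylation and a change in the amount of the transcript cannot be told apart. With 1 library per group there is no spread between replicates, no value has an error, and no test was made. Sequencing depth and the places of peaks on the transcripts were not analysed here.

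Plasma protein genes are among the most strongly transcribed genes of hepatocytes, and their products leave the cell through the secretory pathway. Hepatocellular carcinoma cells often keep part of this programme, and AFP and GPC3, active in the fetal liver and mostly silent in the adult organ, are known as markers of the tumour. In mRNA, m6A is found most often in long internal exons and near the stop codon, where it can affect processing, translation and decay of the transcript.

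In HUH7, most of the listed genes lay close to 0. Of the 42 genes, 29 were within 0.5 of 0 on the log2 scale, and 42.3% of all HUH7 genes were; the distance of 0.5 was chosen after the values were seen. A size of 1 or more, positive or negative, was reached by 9 of the 42 plasma protein genes (21.4%) and by 36.9% of all HUH7 genes. Among these 9, 7 were positive and 2 negative, where 22.2% of all HUH7 genes had a value of 1 or more and 14.6% a value of -1 or less. The median of the listed members was 0.16, with quartiles at -0.18 and 0.48, and the median of the whole column was 0.20, with quartiles at -0.36 and 0.87. Positive values were given to 25 of the 42 genes and negative values to 17, a positive share of 59.5% beside 60.8% of all HUH7 genes. Taken over all rows, the sign was thus split in nearly the same way as in the whole column, while the middle part of the values was narrower. The split by sign differed between parts of the column, as described below.

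**Figure D1:**
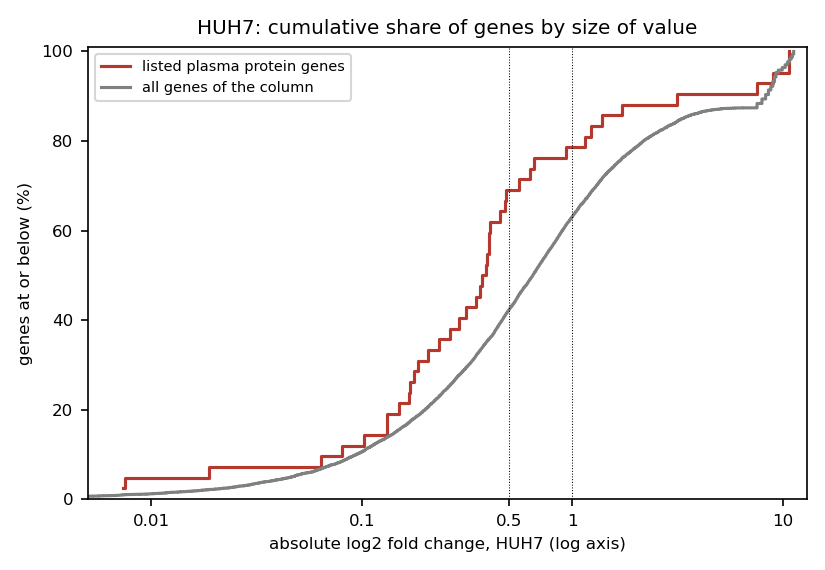
Cumulative share of genes (vertical axis, percent) by absolute log2 fold change in HUH7 (horizontal axis, logarithmic), for the 42 listed plasma protein genes (red) and all 10447 genes (grey). The dotted lines mark 0.5 and 1: 69.0% of the plasma protein genes and 42.3% of all genes lie below 0.5.

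Carriers and acute-phase proteins bind small molecules and metals or rise in inflammation, and 10 of 14 were listed in HUH7, 6 positive and 4 negative, with a median of 0.069. In the authors' deposited table FETUB, which encodes fetuin-B, had 1.39 and CP, which encodes the copper-carrying ferroxidase ceruloplasmin, had 1.23. RBP4, the retinol carrier, had 0.40, HP, which encodes the haemoglobin-binding haptoglobin, had 0.13, and AHSG, which encodes fetuin-A, had 0.0073 in that table. HP has a near-identical neighbour, HPR, with which reads can be shared. The 4 negative genes of the authors' deposited table were VTN at -0.10, TF at -0.18, AMBP at -0.37 and HPX at -0.48. They encode the adhesion protein vitronectin, the iron carrier transferrin, the precursor of alpha-1-microglobulin and bikunin, and the haem-binding hemopexin. All 4 stayed within 0.5 of 0, so that in this group only positive values reached a size of 1. A1BG, which encodes a glycoprotein of the immunoglobulin superfamily, had 10.73 in the authors' deposited table, a repeated value described below. ALB, TTR, which encodes the thyroxine and retinol-binding protein carrier transthyretin, and the orosomucoid genes ORM1 and ORM2 had no HUH7 value.

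Of the fetal liver genes, GPC3, which encodes a heparan sulfate proteoglycan, had 0.21 in HUH7 in the authors' deposited table, at percentile 50.5 of the column. AFP, which encodes alpha-fetoprotein, was listed in neither line.

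Coagulation and fibrinolysis genes had the highest share of listed members in HUH7, 13 of 15, closely followed by the inhibitors with 12 of 15. Of the 13 coagulation genes, 9 were positive (69.2%), beside 60.8% of all HUH7 genes. Without 2 repeated values, all 11 remaining genes lay between -0.41 and 0.94. The chains of fibrinogen, the protein that thrombin turns into the clot, were all positive in the authors' deposited table: FGG had 0.94, FGA 0.56 and FGB 0.36. F7 and F10, which start and carry on the extrinsic cascade, had 0.48 and 0.35 in the authors' deposited table. F2, the prothrombin gene, had 0.17 and F5, the gene of its activating cofactor, had 0.13 in that table. PROC, which encodes the anticoagulant protein C, had 0.18 in the authors' deposited table. The negative genes there were KNG1 (kininogen) at -0.064, F12 at -0.17 and PLG (plasminogen, which dissolves the clot) at -0.41. KNG1 and F12 act in contact activation, as does F11, which had a repeated value of -8.94 in the authors' deposited table. F13B, which encodes the carrier subunit of the factor that cross-links fibrin, had a repeated value of 10.73 there. F9 and PROS1 had no HUH7 value.

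Complement genes were listed for 6 of 12 members in HUH7, 3 positive and 3 negative, with a median of 0.22. C6, which joins the membrane attack complex, had 3.15 in the authors' deposited table, the largest unrepeated HUH7 value among the members and at percentile 92.9 of the column. It was also the only complement gene to reach a size of 1. C8A, another part of that complex, had -0.26 in the authors' deposited table, and C5, from which the complex starts, had 0.45. The proteases of the first component lay on either side of 0 in the authors' deposited table, C1R at 0.65 and C1S at -0.080. C3, the central component, had -0.019 in the authors' deposited table. C8B, C9, CFB, CFI, C4A and C4B had no HUH7 value. C4A and C4B are near-identical copies, between which reads can be shared.

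Protease inhibitors and serpins were listed for 12 of 15 members in HUH7, 6 positive and 6 negative, with a median of 0.071. SERPINA1, which encodes alpha-1-antitrypsin, the main inhibitor of neutrophil elastase, had 1.72 in the authors' deposited table. SERPINA7, the thyroxine-binding globulin gene, had 1.15, whereas SERPINA6, the cortisol-binding globulin gene and likewise a serpin that carries a hormone, had -0.39 in the authors' deposited table. The antichymotrypsin gene SERPINA3 had 0.39 and the protein C inhibitor gene SERPINA5 had 0.40 in the authors' deposited table. SERPINF2 (alpha-2-antiplasmin) had 0.23 and SERPINF1 (pigment epithelium-derived factor) 0.15 in that table. The thrombin inhibitor genes SERPINC1 (antithrombin) and SERPIND1 (heparin cofactor II) had -0.0075 and -0.29 in the authors' deposited table. SERPING1, the gene of the C1 inhibitor, had -0.63, the lowest unrepeated HUH7 value among the members, and A2M, the alpha-2-macroglobulin gene, had -0.31 in the authors' deposited table. ITIH1, a heavy chain of the inter-alpha-trypsin inhibitor, had a repeated value of -7.53 there, and ITIH2, ITIH3 and ITIH4 had no HUH7 value. Over the 5 roles, the members at -1 or less were F11 and ITIH1, both with a repeated value, 2 of 42 beside 14.6% of all HUH7 genes.

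**Figure D2:**
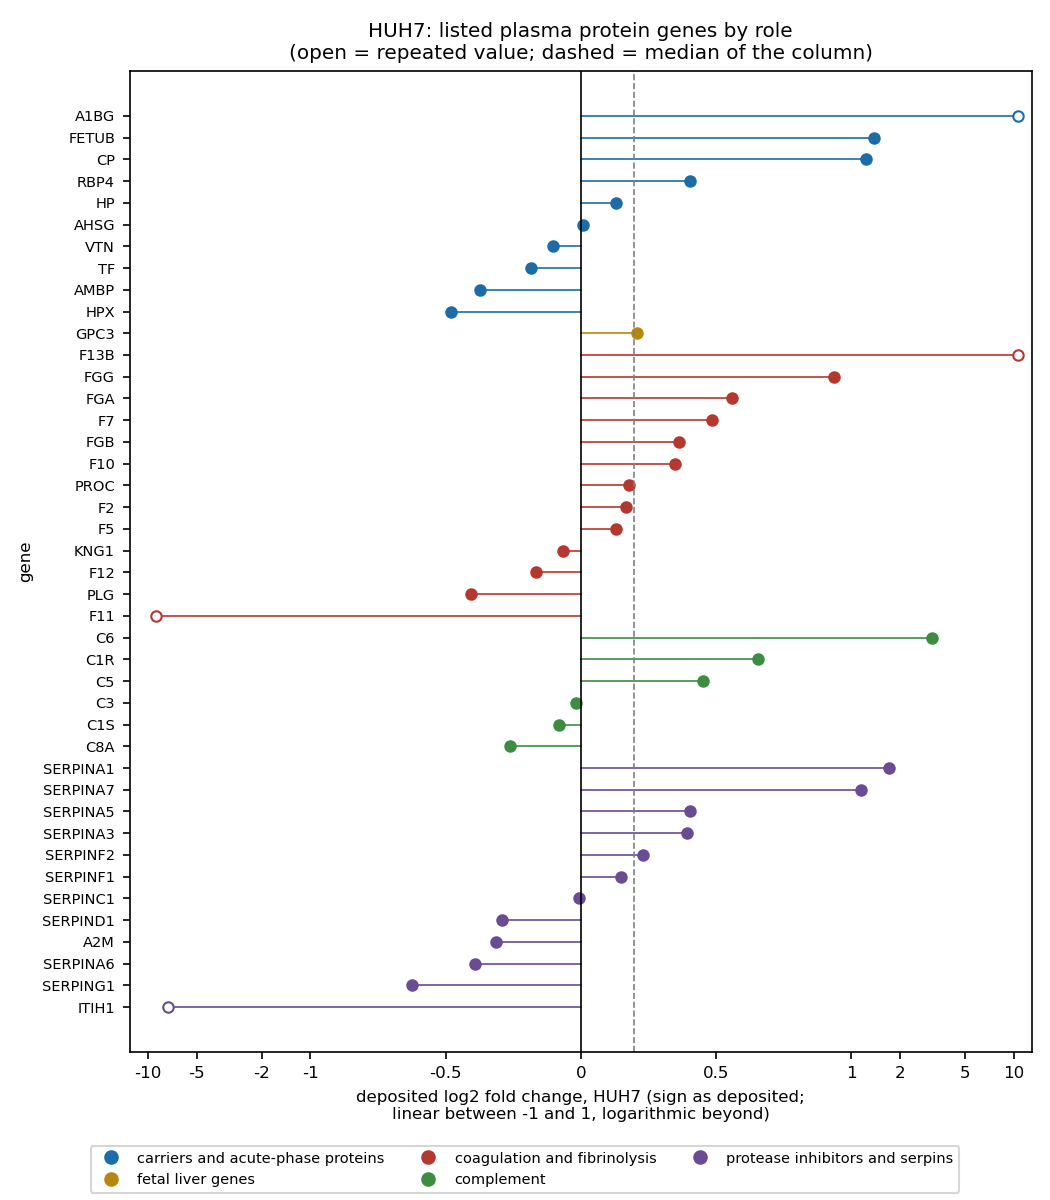
Deposited HUH7 log2 fold change (horizontal axis, linear between -1 and 1 and logarithmic beyond) of each of the 42 listed genes, grouped by role from top to bottom. Open circles mark the 4 repeated values, and the dashed line is the median of the whole column, 0.20. Most points lie near 0, with C6 at 3.15 the farthest of the filled ones.

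Some HUH7 values were shared by many genes. Values larger than 1 in size that at least 10 genes had in common, to 6 decimals, were called repeated, and 12.6% of all HUH7 genes carried one. Among the members these were F13B, A1BG, F11 and ITIH1, 4 of 42. The 8 repeated values of each sign were spaced exactly as the log2 of the whole numbers 3 to 10 to 6 decimals. F13B and A1BG stood at the positive step of 7, which 62 genes held in all. F11 stood at the negative step of 8, held by 110 genes, and ITIH1 at the negative step of 3, held by 102 genes. These 4 genes are not ranked with the others. Without them, 23 genes were positive, 15 negative and the median remained 0.16.

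The HUH7 column ran through the chromosomes from 1 to X and then started again at 1, and the sign differed between these runs. The first run held 9968 genes, of which 63.3% were positive, with a median of 0.24. The second held 479 genes, of which 9.60% were positive, with a median of -2.27. Members in the second run were TF, HPX, AMBP, VTN, A2M and ITIH1. These were 6 of the 42 listed members, a larger share than the 479 of all 10447 HUH7 genes. All 6 were negative, while the first run had 25 positive and 11 negative members. So 4 of the 4 negative carriers came from the second run, and no positive member did. What sets the second run apart is not given in the sources used here, and its part in these signs was not tested. Apart from the repeated ITIH1, the members there lay between -0.48 and -0.10. The median of that run includes repeated values, which 169 of its 479 genes carried, so these members were not compared with it.

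**Figure D3:**
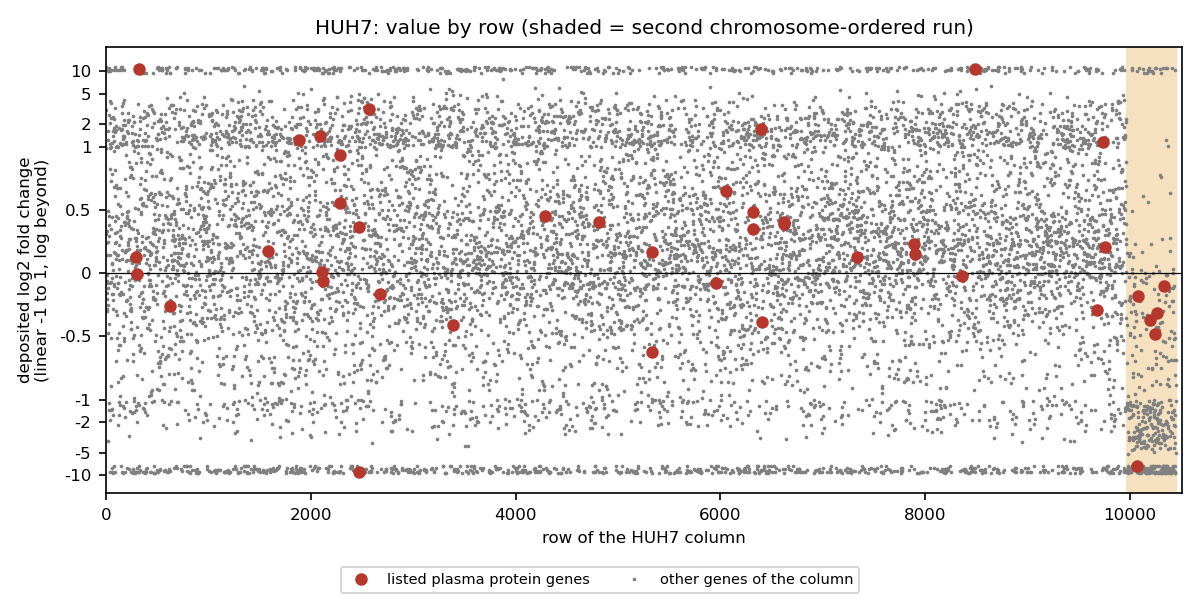
Deposited HUH7 log2 fold change (vertical axis, linear between -1 and 1 and logarithmic beyond) by row of the column (horizontal axis), for the listed plasma protein genes (red) and all other genes (grey). In the shaded second run the 6 members are all below 0, as are most other genes there; the bands at the top and bottom are the repeated values.

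Several members are neighbours in the genome, and 29 of the 58 lay in 11 groups whose genes follow each other within 1000 kb (RefSeq coordinates, GRCh38.p14). The fibrinogen genes lie within 50 kb on chromosome 4 (FGB 154562980 to 154572807, FGA 154583126 to 154590742, FGG 154604136 to 154612656), and all had positive HUH7 values. F7 (chromosome 13, 113105791 to 113120685) and F10 (113122799 to 113149529) were also alike, at 0.48 and 0.35 in the authors' deposited table. SERPINF2 (chromosome 17, 1742871 to 1755265) and SERPINF1 (1762060 to 1777565) were alike too, at 0.23 and 0.15 in that table. Of all 42 listed members, 29 lay within 0.5 of 0, and 60.8% of all HUH7 genes were positive. Small positive values in 2 neighbours therefore do not set them apart from other members. Other neighbours were not alike. On chromosome 14, SERPINA6 (94304248 to 94323336) had -0.39 and SERPINA1 (94376747 to 94390635) had 1.72 in the authors' deposited table, with SERPINA5 (0.40) and SERPINA3 (0.39) farther along. On chromosome 3, FETUB (186635969 to 186653141) at 1.39 lay between AHSG (186613060 to 186621318) at 0.0073 and KNG1 (186717359 to 186744410) at -0.064 in the authors' deposited table. C1S (chromosome 12, 7060718 to 7071032) and C1R (7080219 to 7092445) differed in sign. Of the neighbours ALB (chromosome 4, 73404287 to 73421482) and AFP (73436221 to 73456174), ALB was listed in PLC/PRF/5 only and AFP in neither line.

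In PLC/PRF/5 a gene could have several values, taken as peaks. Of the 23 listed members, 12 had 1 peak and 11 had 2 or more (47.8%, beside 39.5% of all gene names). The median of a gene's peaks was positive for 21 members and negative for 2, and 90.3% of all PLC/PRF/5 genes had a positive median. A median of 1 or more in size was reached by 21 of 23 members, a share of 91.3% beside 89.0% of all genes. By peaks, 38 were positive and 11 negative, and 14.0% of all peaks were negative. The member peaks had a median of 6.53 and ran from -1.77 to 12.69, and all peaks of the column had a median of 5.44. The whole column was filled evenly. Each of 5 intervals 3 units wide from -2 to 13 held between 19.6 and 20.1% of all peaks, and between 5 and 14 of the 49 member peaks. A large positive value in PLC/PRF/5 was therefore the usual case in the column, and its size sets no member apart.

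CP had 8 peaks, the most of any member, and only 49 of 5477 gene names (0.895%) had as many or more. Its peaks in the authors' deposited table were at -1.63, -1.61, -1.30, 0.48, 2.05, 3.49, 11.28 and 12.69, and so spanned nearly the whole column. Per 100 kb of gene length CP had 13.5 peaks, and the highest value of any member was 35.2, for FGG. F5 had 6 peaks in the authors' deposited table, 1 at -1.29 and the others at 6.46, 9.16, 10.27, 10.53 and 11.18. TF had 4, at -0.81, 1.43, 8.35 and 8.95 in the authors' deposited table. CP, F5 and TF each had peaks of both signs, and the median of a gene hides a wide range.

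The fibrinogen chains did not share a pattern of peaks. FGA had peaks at -1.31 and 11.94 and FGB at -0.78 and 7.04 in the authors' deposited table. FGG had 3, at 6.53, 9.87 and 10.80 in the authors' deposited table, and none below 0. PROS1, which encodes protein S, the cofactor of protein C, had the narrowest set of peaks, at 5.42, 6.42 and 6.94 in the authors' deposited table. KNG1 had peaks at 1.42 and 3.43 and F7 a single peak at 0.65 in the authors' deposited table. Among the 11 members with 2 or more peaks, 7 had peaks of both signs (63.6%, beside 33.2% of all such gene names). The distance from the lowest to the highest peak had a median of 8.10 for these members and of 6.42 for all such gene names. Members and other gene names were not matched on their number of peaks.

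The complement and inhibitor genes had mostly single, high peaks. A single peak was also the case for 3311 of all 5477 gene names, and the median of all peaks was 5.44. C1S had 10.58 and CFB, the protease of the alternative pathway, had 9.34 in the authors' deposited table. C5 had peaks at -0.15, 11.53 and 12.54 there. SERPIND1 had 11.69, ITIH2 10.16 and SERPINA1 8.99 in the authors' deposited table. A2M had peaks at 0.85 and 8.94 there. The medians by role were 10.58 for complement (3 genes), 9.58 for inhibitors (4), 5.32 for coagulation (7) and 3.08 for carriers (8), beside 5.45 for all gene medians, and with so few genes from an evenly filled range this order sets no role apart.

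Carriers held both of the members with a negative median. HPX had a single peak at -1.39 and AMBP a single peak at -1.77 in the authors' deposited table, the lowest member peak. ALB had 8.04, ORM1, which encodes an acute-phase glycoprotein, had 7.28, and A1BG had 9.60 in the authors' deposited table. ORM1 is nearly identical to its neighbour ORM2, which was not listed, so its reads may come from either. VTN had 1.18 in the authors' deposited table. GPC3 had peaks at -0.42 and 2.41 there.

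**Figure D4:**
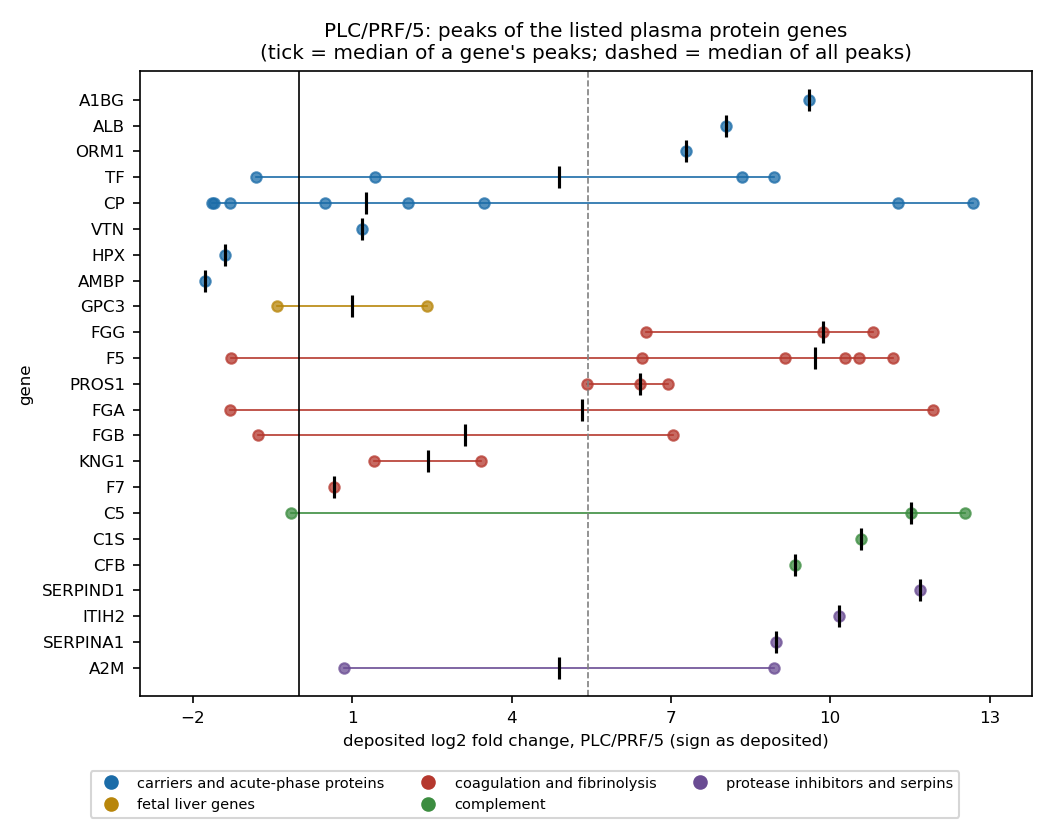
Deposited PLC/PRF/5 log2 fold change (horizontal axis) of the 49 peaks of 23 genes, grouped by role from top to bottom; points are peaks, horizontal lines join the peaks of a gene and black ticks are medians. The dashed line is the median of all peaks, 5.44, and CP with 8 peaks spans -1.63 to 12.69.

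Both lines listed 18 members, HUH7 alone 24 and PLC/PRF/5 alone 5 (ALB, ORM1, PROS1, CFB and ITIH2). Of the 47 listed members these were 38.3%, 51.1% and 10.6%, close to the 32.1%, 54.6% and 13.4% of all 12058 gene names. Another 11 were in neither (AFP, TTR, ORM2, F9, C4A, C4B, C8B, C9, CFI, ITIH3 and ITIH4). Taking the median of the PLC/PRF/5 peaks, 12 of the 18 shared members had the same sign in both lines (66.7%), and 2198 of all 3866 shared gene names did (56.9%). This assumes that both columns use the same numerator, which the header does not state. HPX and AMBP were the only members negative in both columns, with HPX at -0.48 in HUH7 and -1.39 in PLC/PRF/5 and AMBP at -0.37 in HUH7 and -1.77 in PLC/PRF/5, as the authors' deposited table has them. Both stood in the second run of the HUH7 column. The other 10 had a positive value and a positive median, among them SERPINA1 (1.72 and 8.99), FGG (0.94 and 9.87), FGA (0.56 and a median of 5.32) and C5 (0.45 and a median of 11.53) in the authors' deposited table. The 6 members with opposite signs were TF, VTN, KNG1, SERPIND1, C1S and A2M. All 6 were negative in HUH7, with A2M the lowest at -0.31 in the authors' deposited table. As 90.3% of all PLC/PRF/5 gene medians were positive, an opposite sign mostly restates a negative HUH7 value and does not set these 6 apart.

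**Figure D5:**
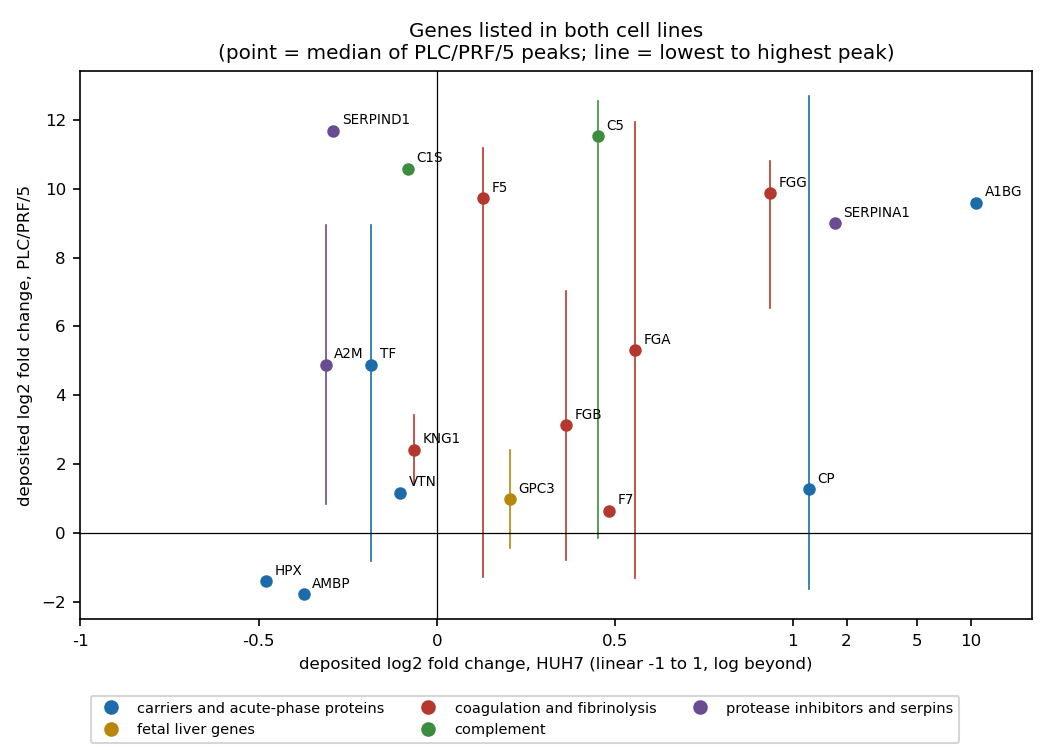
The 18 members listed in both lines, by HUH7 log2 fold change (horizontal axis, linear between -1 and 1 and logarithmic beyond) and PLC/PRF/5 log2 fold change (vertical axis); points are medians of peaks and vertical lines run from the lowest to the highest peak. HPX and AMBP are alone in the lower left, and 10 members lie in the upper right.

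Genes of the same pathways outside the members also went both ways in HUH7. Of 18 other coagulation genes, 8 were listed, 5 positive and 3 negative. The largest were HRG (histidine-rich glycoprotein, 1.57), PLAT (tissue plasminogen activator, -1.29), KLKB1 (plasma prekallikrein, -1.11) and PROZ (protein Z, 1.01) in the authors' deposited table. A size of 1 or more was reached by 5 of these 8 genes, by 2 of the 13 listed coagulation members, both with a repeated value, and by 36.9% of all HUH7 genes. Of 25 other complement genes, 6 were listed, 3 positive and 3 negative, led by MBL2 (mannose-binding lectin, -1.31), CLU (clusterin, 0.65), CD59 (a membrane inhibitor of the attack complex, 0.29) and MASP1 (-0.27) in the authors' deposited table. Of 28 other secreted liver proteins, 13 were listed, 4 positive and 9 negative, with a median of -0.11, where 60.8% of all HUH7 genes were positive. The serum amyloid genes SAA1 (2.39) and SAA4 (-1.38) had the largest unrepeated values, followed by SERPINA11 (-0.54) and CPN1 (0.39) in the authors' deposited table. SAA1 and SAA2 are close copies, so reads can be shared between them. Among the 6 other complement genes only MBL2 reached a size of 1, as only C6 did among the 6 listed complement members. Of the 13 other secreted liver proteins, 1 had a value of 1 or more and 3 a value of -1 or less, 2 of these repeated. Of all HUH7 genes, 22.2% had a value of 1 or more and 14.6% a value of -1 or less.

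Of 8 other glypicans and fetal genes, 5 were listed in HUH7, and each had a size of 1 or more, as 36.9% of all HUH7 genes did. DLK1 (1.75), GPC6 (1.24), LIN28B (-1.36) and IGF2BP3 (-1.36) were unrepeated in the authors' deposited table, and GPC1 had a repeated value. In PLC/PRF/5, 2 of the 18 other coagulation genes, 3 of the 25 other complement genes, 6 of the 28 secreted liver proteins and 2 of the 8 glypicans and fetal genes were listed. Their gene medians were positive in all but 1, a secreted liver protein gene, IGFBP1, at -0.63 in the authors' deposited table, which was named after its value was seen.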

How the data were processed

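MeRIP-seq libraries came from 2 human cell lines, with 1 library per group and 4 per line. Per the file headers, each cell line has 1 column of deposited log2 fold changes. The submitters' processing notes name FastQC 0.12.0 and build hg38. For the aligner, peak caller, differential test, scaling and filters, the sources used here give nothing, so how they shaped the values is unknown, as is depth. Gene names were matched to RefSeq (GRCh38.p14) symbols, or to synonyms that only 1 gene has; 0 members needed a synonym. Python 3.11.15 with pandas 2.3.3 counted signs and sizes of 1 or more and took medians, for the members and for the whole column; a PLC/PRF/5 gene had the median of its peaks. The counting was tested on simulated data. No test between conditions was possible with 1 library a group. The members, roles, related lists and thresholds were chosen with earlier results of these data known. Every listed member is named, and per related list the 4 largest unrepeated HUH7 values. Alternatives were a minimum size of 1, repeated values left out, names as given, the mean or the largest peak per gene, and, chosen after seeing the data, the first run of the HUH7 column. The table held 0 columns of other samples. Part of the hepatocyte marker list is not reported here.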

Additional observations from a re-analysis of the deposited data

Results flagged for a closer look

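VTN, KNG1, SERPIND1, C1S and A2M were flagged because the HUH7 value was negative and every PLC/PRF/5 peak positive. How many of all shared gene names had this pattern was not counted. A different measure is the sign of the median of peaks. It was the same in both lines for 66.7% of the 18 shared members, beside 56.9% of all 3866 shared gene names. VTN and A2M stood in the second run of the HUH7 column, where 9.60% of all genes were positive. In HUH7, VTN had -0.10, KNG1 -0.064, SERPIND1 -0.29, C1S -0.080 and A2M -0.31 in the authors' deposited table. In PLC/PRF/5 the lowest peak was 1.18 for VTN, 1.42 for KNG1, 11.69 for SERPIND1, 10.58 for C1S and 0.85 for A2M in the authors' deposited table. The difference between the lines was not tested, since each line has 1 library per group, and the HUH7 values are small. Of all PLC/PRF/5 gene medians, 90.3% were positive.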

How the results depend on the processing

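No paired analysis was possible because the deposited table holds fold changes of unstated direction and no value per library. Counting only sizes of 1 or more left 7 positive and 2 negative members in HUH7, and the first run alone held 11 negative ones (25 positive, 17 negative in all). With a gene's largest peak in place of its median, the PLC/PRF/5 median moved to 8.95 over all members (6.42 with medians), to 7.66 for carriers, 2.41 for GPC3 and 7.04 for coagulation; with the mean of peaks it was 6.26 over all members. A shift of 0.1 counted as a move, as no replicate spread exists. The other 23 alternatives kept their counts within 1.5 times and their medians within 0.1, and none changed sign. Depth is unknown, so small values cannot be told from 0.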

Other observations

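Markers of liver cells and of other cell types were also in the HUH7 column. The hepatocyte genes APOB (-0.50), ASGR1 (0.45), HNF4A (0.18) and FOXA2 (-0.12) were each below 1 in size in the authors' deposited table. So were most genes of the column, as 36.9% of all HUH7 genes had a size of 1 or more. All 4 stellate cell and fibroblast genes had positive values, COL1A2 at 4.01, COL1A1 at 3.97, PDGFRB at 2.26 and ACTA2 at a repeated 9.92 in the authors' deposited table, where 60.8% of all HUH7 genes were positive. None of these 4 was listed in PLC/PRF/5, and neither were 6581 of all 10447 HUH7 genes. The other marker lists had 2 of 4 genes each in HUH7. In the authors' deposited table the endothelial genes were PECAM1 at 0.92 and CDH5 at a repeated -7.94, the macrophage and leukocyte genes CD14 at 1.56 and CD68 at 0.18, and the cholangiocyte genes SOX9 at 0.40 and EPCAM at -0.38. The table gives no level of any transcript, so it does not show whether these genes were expressed in the cells, and their part in the values of the plasma protein genes was not tested.

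The 8 negative repeated values of HUH7 were held by 85 to 110 genes each and the 8 positive ones by 53 to 68 genes each, so that no step was much more frequent than the others of its sign.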
